A study of Mus musculus with 23 samples.

Results

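Collagens make up most of the protein that fibroblasts lay down around themselves, and 9 of their genes were followed here: Col1a1, Col1a2, Col3a1, Col4a1, Col4a2, Col5a1, Col5a2, Col6a1 and Col6a2. Every probe set whose platform annotation gave 1 of these symbols and no other was taken, which gave 15 probe sets of the 12422 tested, and 9 genes of the 8251 that had a probe set with 1 symbol. A probe set is the group of short probes on an Affymetrix array that reads 1 transcript. Col3a1 had 3 probe sets, Col1a1, Col1a2, Col5a1 and Col6a1 had 2 each, and the other 4 genes had 1 each. Where 1 probe set stands for its gene it is the one with the highest mean over all arrays. Probes differ in how brightly they bind, so levels are read within a probe set and not between genes.

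All cells were primary mouse embryonic fibroblasts, the mesenchymal cells of a dissociated embryo, taken from C57/BLACK6 embryos of age e14.5 that the labels give as ATF1 -/+, with no wild-type group. They were starved of serum for 48 hours in 1% dialyzed serum and then held for 2 hours with 200 µM 4-thiouridine, a uridine analogue that marks RNA made in that time, in either 1% serum (starved) or 10% serum (treated), with tritiated cytidine. 3 kinds of RNA were hybridised: newly transcribed RNA, captured through its thiol group on an organomercurial matrix; total RNA; and amplified total RNA. The 6 groups held 4 arrays each, except amplified RNA from starved cells with 3, which makes 23 arrays numbered as biological replicates. The labels do not say what arrays of the same number share, and the label protocol of all arrays speaks of linear amplification, so the titles alone tell amplified from unamplified total RNA.

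Collagen chains wind into triple helices inside the cell and are assembled outside it. Type I collagen (chains Col1a1 and Col1a2) and type III collagen (Col3a1) form the thick fibrils of connective tissue, and type V collagen (Col5a1 and Col5a2) is built into those fibrils and sets their width. Type IV collagen (Col4a1 and Col4a2) forms the sheet of basement membranes, and type VI collagen (Col6a1 and Col6a2, which combine with a further chain) forms beaded microfilaments close to the cell.

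Promoters are shown to let the regulatory sequence be read beside the values: those of Col3a1, Col6a1 and Col6a2, on which the results turn, of Col1a2 as an example with another motif, and of the neighbours Col4a1 and Col4a2. RefSeq promoter windows of build GRCm38.p6, from 250 bases before to 50 bases after an annotated start, were given for 7 of the 9 genes, as 8 windows. Below are the 150 bases that precede the start, 5′ to 3′ on the gene's strand, for Col3a1 (chr1:45311388-45311537, plus strand), Col1a2 (chr6:4505468-4505617, plus strand), Col6a1 (chr10:76726045-76726194, minus strand) and Col6a2 (chr10:76623631-76623780, minus strand). Capitals mark TATAAA in Col3a1, CCAAT in Col1a2 and TGANTCA, the form of the AP-1 site, in Col6a1; Col6a2 holds none of the searched motifs in these bases.
Col3a1: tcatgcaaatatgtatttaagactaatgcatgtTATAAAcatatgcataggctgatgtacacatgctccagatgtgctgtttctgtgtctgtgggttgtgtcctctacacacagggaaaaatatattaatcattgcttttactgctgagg
Col1a2: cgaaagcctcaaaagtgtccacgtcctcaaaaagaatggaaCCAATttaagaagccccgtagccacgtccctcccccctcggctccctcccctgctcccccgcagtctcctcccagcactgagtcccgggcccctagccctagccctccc
Col6a1: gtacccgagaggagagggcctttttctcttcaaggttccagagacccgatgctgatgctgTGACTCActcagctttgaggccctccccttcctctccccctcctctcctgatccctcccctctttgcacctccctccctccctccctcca
Col6a2: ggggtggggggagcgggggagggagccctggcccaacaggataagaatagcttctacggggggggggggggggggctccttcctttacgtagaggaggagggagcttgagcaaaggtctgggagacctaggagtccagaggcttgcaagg

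Col4a1 and Col4a2 lie on opposite strands and are transcribed in opposite directions. Their annotated starts lay 21 bases apart, and each gene is read across the start of the other, so their first bases overlap. Their promoter windows overlapped by 78 bases. The 30 bases that hold both starts (chr8:11312801-11312830) are printed on the strand of each gene, with the start of that gene in capitals.
Col4a2: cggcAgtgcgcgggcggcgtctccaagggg
Col4a1: ccccTtggagacgccgcccgcgcactgccg

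Searched on both strands of the whole 300-base windows, GGGCGG, the core of the Sp1 site, was in 6 of the 8 collagen windows (those of Col1a2, Col4a1, Col4a2, Col5a1 and Col6a2) and in 35.7% of all 32851 windows. CCAAT was in 3 (Col1a2, Col4a1 and Col4a2) and in 37.4% of all. TATAAA was in the Col3a1 window and in 13.6% of all, and TGANTCA was in the Col6a1 window and in 7.81% of all. None held the CArG box of serum response factor, which 1.63% of all windows held. These are matches of letters and show no binding. In the genome Col3a1 and Col5a2 are direct neighbours, as are Col4a1 and Col4a2, while 2 genes lie between Col6a1 and Col6a2, of which 0 code for protein.

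Levels are given as log2(normalized intensity + 16), where arrays were first set to 1 common distribution. The deposited values were not on a common scale, with array medians from 7.3 to 75.2, and normalization was needed before any comparison. The Col6a1 probe set 162459_f_at reached down to a normalized intensity of 37.9, on a scale whose median array value was 41.2, and each of the other 14 stayed above that median on all 23 arrays. Fibroblast markers were present, among them Fbln2 at 1293 to 4173 and Thy1 at 158 to 2661 in normalized intensity, while the Vim probe set was dim at 5.07 to 48.2. The median over arrays lay above 41.2 for 10 of 11 fibroblast, 12 of 16 macrophage, 2 of 9 endothelial, 1 of 12 epithelial, 1 of 8 cartilage and 3 of 15 skeletal muscle markers. Among these were Lyz2 (221 to 2420) and Csf1r (75.1 to 1296) of macrophages, Eng (124 to 1137) and Flt1 of endothelium, Cdh1 of epithelium, Col9a1 of cartilage, and Acta1 (48.4 to 962), Actc1 (158 to 949) and Myod1 of muscle, while endothelial Cdh5 (1.29 to 3.77), epithelial Epcam (0.215 to 8.03) and cartilage Col2a1 (1.51 to 22.5) lay below it on all arrays. The quality control probe sets for GAPDH, whose 3′ signal exceeds the 5′ signal where copies of an RNA are incomplete, differed by 2.16 ± 0.65 (SD, n = 8) on the log2 scale in newly transcribed RNA, by 1.55 ± 0.60 (SD, n = 7) in amplified RNA and by -0.20 ± 0.11 (SD, n = 8) in total RNA. Amplified array 3 of starved cells ran against its number: its deviations from the group mean over all probe sets correlated at -0.47 with amplified array 3 of treated cells and at 0.79 with array 4. Differences within number 3 that use it are therefore not read as pairs.

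**Figure D1:**
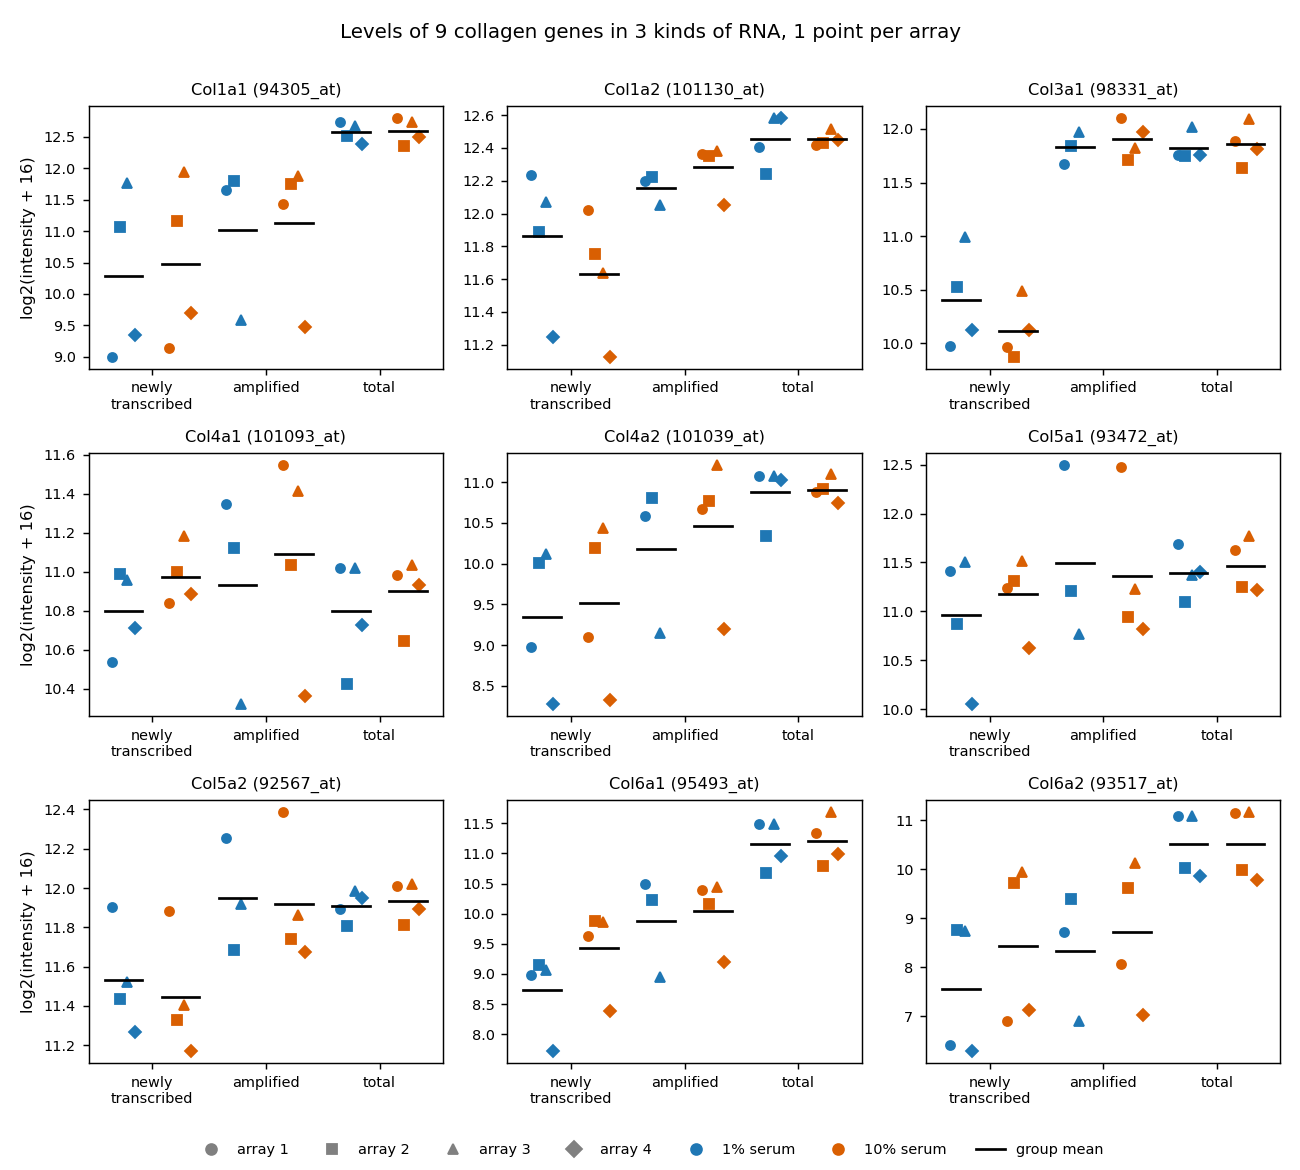
Levels of the 9 collagen genes, by the brightest probe set of each, as log2(normalized intensity + 16) on the vertical axis, whose range differs between panels. Each point is 1 array, marker shapes give the array number, colours give the serum and black bars are group means; Col3a1 in newly transcribed RNA lies between 9.88 and 10.99, below all its values in the other kinds of RNA.

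The clearest collagen difference was that of Col3a1 between newly transcribed and amplified total RNA. The labels' protocol gives a linear amplification for both, and their comparison is meant to set the share of a transcript in RNA made over 2 hours against its share in the whole pool. Only the newly transcribed RNA also went through the thiol capture. The part of that step in the differences was not tested. In 10% serum the brightest Col3a1 probe set (98331_at) read 9.97, 9.88, 10.48 and 10.12 in arrays 1 to 4 of newly transcribed RNA. In amplified RNA it read 12.11, 11.71, 11.82 and 11.97. The groups did not overlap, and the new RNA was lower in 4 of 4 array numbers; the 4 differences ran from -2.14 to -1.34. The mean difference was -1.79 ± 0.18 (SE, n = 4 and 4), a level 0.289 of that in amplified RNA, with an adjusted p of 0.0053 (limma, Benjamini-Hochberg over all probe sets).

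Both other Col3a1 probe sets moved the same way in 10% serum. The probe set 102990_at read 7.17, 6.75, 7.14 and 7.97 in newly transcribed RNA and 10.50, 9.15, 8.59 and 9.70 in amplified RNA, a difference of -2.23 ± 0.43 (SE; limma adjusted p = 0.032). The probe set 161984_f_at, whose suffix f marks probes that may match a family of sequences, read 7.38, 6.97, 6.75 and 7.72 against 10.10, 8.99, 8.84 and 8.83, a difference of -1.98 ± 0.34 (SE; limma adjusted p = 0.023). Neither pair of groups overlapped.

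The starved cells gave the same picture for Col3a1, with 1 array fewer. In newly transcribed RNA 98331_at read 9.98, 10.53, 10.99 and 10.12, and in amplified RNA 11.68, 11.85 and 11.98. The difference was -1.43 ± 0.27 (SE, n = 4 and 3; limma adjusted p = 0.042), a level 0.371 of that in amplified RNA. The differences of 102990_at (-1.81 ± 0.30, SE; limma adjusted p = 0.034) and 161984_f_at (-1.92 ± 0.34, SE; limma adjusted p = 0.037) were of like size, and the groups of all 3 probe sets lay apart. Against the amplified pool, unamplified total RNA differed in Col3a1 by less than the spread between arrays: 98331_at averaged 11.82 ± 0.13 (SD, n = 4) in starved and 11.86 ± 0.19 (SD, n = 4) in treated total RNA, and 11.83 ± 0.15 (SD, n = 3) and 11.90 ± 0.17 (SD, n = 4) in amplified RNA. The fitted difference of amplified from unamplified RNA was 0.03 ± 0.10 (SE; limma adjusted p = 0.89) for it.

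Of the 15 collagen probe sets, these 3 fell in each serum condition and 0 rose. Over all probe sets tested, 2% were called lower in 1% serum and 2.83% in 10% serum, of 3.17% and 4.05% called in either direction. All 15 had a negative difference in 1% serum and 14 of 15 in 10% serum, where 51.8% and 47.8% of all probe sets were negative. With the values as deposited, without normalization, 9 of 15 were negative in 1% serum, where the median of all probe sets rose to 0.35 and 13 of 15 lay below it, and 14 of 15 were negative in 10% serum. The median over the 9 genes was -0.72 in 1% serum and -0.61 in 10% serum, against -0.01 and 0.02 over all probe sets. Groups lay apart, with newly transcribed RNA lower, for 4 of 15 probe sets in each condition, where 8.91% and 6.54% of all probe sets did so.

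With values as deposited 0 of the 15 were called in either condition; 98331_at then differed by -0.76 in 1% serum and by -2.02 in 10% serum (limma adjusted p = 0.73 and 0.33). The calls in 1% serum rested on every array: 0 of 3 remained when any 1 of 6 of the 7 arrays was left out, and 1, that of 161984_f_at, remained without newly transcribed array 4. In 10% serum 98331_at was called in all 8 such fits, with differences of -1.91 to -1.71, and each of the others in 3 of 8, the count being 1 without amplified array 2 or without newly transcribed array 1, 2 or 3.

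**Figure D2:**
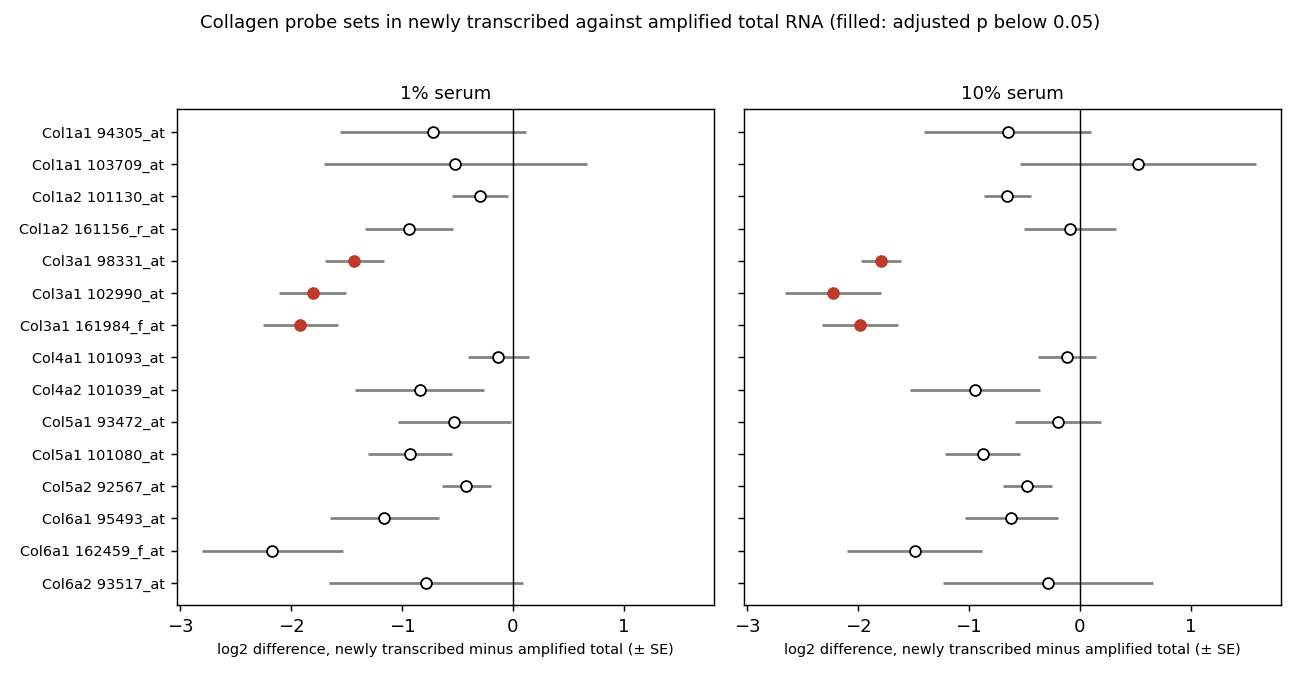
Difference of newly transcribed from amplified total RNA for the 15 collagen probe sets, as a log2 difference on the horizontal axis, in 1% serum (left) and 10% serum (right). Points are fitted differences, bars their standard errors, and filled points had a limma adjusted p below 0.05; the 3 Col3a1 probe sets are the filled points in both panels.

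Arrays of the same number deviated together in newly transcribed and amplified RNA from treated cells, with correlations of 0.56 to 0.73 over all probe sets, so the numbers were also entered as a block. With that block 9 of the 15 probe sets were lower in newly transcribed RNA and 0 were higher in 10% serum, where 10.1% of all probe sets were called lower and 21.1% in either direction. Beside Col3a1 they were 101130_at of Col1a2 (-0.65 ± 0.15, SE; limma adjusted p = 0.032), Col4a2 (-0.94 ± 0.20, SE; adjusted p = 0.022), 101080_at of Col5a1 (-0.87 ± 0.17, SE; adjusted p = 0.018), Col5a2 (-0.47 ± 0.13, SE; adjusted p = 0.048) and both probe sets of Col6a1. Each of these was lower in 4 of 4 array numbers. For Col6a1, 95493_at differed by -0.61 ± 0.15 (SE; limma adjusted p = 0.037) and 162459_f_at by -1.49 ± 0.17 (SE; limma adjusted p = 0.0049). The other 6 probe sets, which include both of Col1a1 and those of Col4a1 and Col6a2, were not called. The probe sets of Col1a2 and Col5a1 were split, since the second of each (161156_r_at, -0.09 ± 0.23, and 93472_at, -0.19 ± 0.29, SE) was not called. Without array number 2, 3 or 4 the count of 9 fell to 3, 4 and 5, and with the GAPDH 3′ to 5′ difference as a covariate to 4, the 3 of Col3a1 and 162459_f_at of Col6a1. Over the 4 fits that left out 1 number, Col5a2 and 95493_at of Col6a1 were called in 0. In all 4 fits 98331_at and 161984_f_at of Col3a1 and 162459_f_at of Col6a1 were called, and the rest in some of them.

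Col4a1 stayed nearest to equal levels. Its newly transcribed RNA averaged 10.80 ± 0.21 (SD, n = 4) in starved and 10.98 ± 0.15 (SD, n = 4) in treated cells, against 10.93 ± 0.54 (SD, n = 3) and 11.09 ± 0.53 (SD, n = 4) in amplified RNA and 10.80 ± 0.28 and 10.90 ± 0.17 (SD, n = 4 each) in total RNA. The 6 means spanned less than the spread within amplified RNA. Its difference between newly transcribed and amplified RNA was -0.13 ± 0.28 in 1% serum and -0.11 ± 0.27 in 10% serum (SE; limma adjusted p = 0.86 and 0.90). Col4a2, the partner chain in type IV collagen, had a wider range, from 8.28 in newly transcribed array 4 of starved cells to 11.21 in amplified array 3 of treated cells.

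Other features of the arrays moved with these comparisons. The mean GAPDH 3′ to 5′ difference was larger in newly transcribed than in amplified RNA, as given above; with it as a covariate the 3 Col3a1 differences in 10% serum were -1.79, -2.41 and -2.13 and stayed called, and those in 1% serum were -1.13, -1.83 and -1.95 and did not (limma adjusted p = 0.15 to 0.20). Of the 16 macrophage markers measured 13 were lower in newly transcribed than in amplified RNA in either serum condition. Of all probe sets 51.8% were lower in 1% serum and 47.8% in 10% serum. In each condition 1 marker was called lower, where 2% and 2.83% of all were, or 5 in 10% serum with the block, where 10.1% were. The summed intensity of these markers in starved cells ranged from 2356 to 7116 in newly transcribed and from 4057 to 14309 in amplified RNA. In treated cells it ranged from 4041 to 10063 and from 4393 to 15764. Their part in the collagen differences was not tested. In these bulk samples the kind of RNA, the number of cells of a type and the RNA per cell cannot be told apart.

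Serum was compared within each kind of RNA, which asks whether 2 hours of 10% serum altered the making or the pool of collagen transcripts. Col6a1 and Col6a2, chains of the same type VI collagen, had the largest increases among the brightest probe sets in newly transcribed RNA, and no collagen probe set was called in total RNA or amplified RNA. For Col6a1 (95493_at) the newly transcribed RNA read 8.98, 9.14, 9.07 and 7.72 in starved and 9.62, 9.87, 9.87 and 8.38 in treated cells, arrays 1 to 4. Array 4 was the lowest in both conditions, and the groups overlapped only through it. For Col6a2 the starved arrays read 6.43, 8.76, 8.75 and 6.30 and the treated arrays 6.90, 9.73, 9.94 and 7.14. The groups of Col6a2 overlapped, since arrays 1 and 4 were far below arrays 2 and 3 in both conditions.

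Within array numbers the picture was narrower. Col6a1 was higher with serum in 4 of 4 numbers, by 0.64, 0.73, 0.80 and 0.66, and Col6a2 in 4 of 4, by 0.47, 0.97, 1.19 and 0.84. Same-numbered arrays of starved and treated cells deviated together in newly transcribed RNA, with correlations of 0.70 to 0.80 over all probe sets. With the number as a block, Col6a1 rose by 0.71 ± 0.11 (SE; limma adjusted p = 0.042), a 1.63-fold level, and Col6a2 by 0.87 ± 0.15 (SE; limma adjusted p = 0.048), a 1.83-fold level. These 2 of the 15 probe sets were called higher and 0 lower, where 0.91% of all probe sets were called higher and 0.829% lower, 1.74% in all. Without the block 0 of the 15 were called and 0% of all, although 800 of all probe sets, 1 of them a collagen one, had an unadjusted limma p below 0.05, and the standard errors of Col6a1 and Col6a2 were 0.44 and 0.94.

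Both calls were close to the threshold. Neither remained when any 1 array number was left out, when arrays were scaled to 1 median (limma adjusted p = 0.053 for Col6a1 and 0.052 for Col6a2, with increases of 0.63 and 0.73) or with values as deposited (0.25 and 0.37, adjusted p = 0.63 and 0.45). With the GAPDH 3′ to 5′ difference as a covariate beside the block the increases were 0.70 and 0.79 (limma adjusted p = 0.093 and 0.097). Genes of the marker lists also moved in the fit with the block alone, where 51% of all probe sets were higher with serum and 1.74% were called. Of the 16 macrophage markers 14 were higher with serum in newly transcribed RNA and 0 were called, with the summed intensities given above. Of 15 skeletal muscle markers 12 were higher and 1, Acta1, was called. Their summed intensity was 376 to 589 in starved and 676 to 1861 in treated cells and did not overlap. That sum mostly reads the actin genes Acta1 and Actc1, with medians of 180 and 417 over all arrays. The next brightest, Myod1, had a median of 42.8. The sum is therefore not read as a measure of muscle cells. Of 11 fibroblast markers 5 were higher and 1, Thy1, was called, with sums of 2964 to 6312 and 3857 to 7694. The part of these markers in the type VI result was not tested. The second Col6a1 probe set, 162459_f_at, gave 0.71 ± 0.13 (SE; limma adjusted p = 0.058) with the block. In total RNA the same genes gave 0.05 ± 0.10 for Col6a1 and 0.01 ± 0.09 for Col6a2 (SE; limma adjusted p = 0.93 and 0.99 with the block). The difference between the serum responses of newly transcribed and total RNA was tested in 1 model with the block: it was 0.66 ± 0.14 for Col6a1 and 0.86 ± 0.17 for Col6a2 (SE; limma adjusted p = 0.28 for both), and 0 of the 15 collagen probe sets and 0% of all were called, with 1343 of all at an unadjusted p below 0.05. With values as deposited both differences of responses turned negative, to -0.28 and -0.13, as did those of all 15, where the median of all probe sets was -0.45.

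Fibrillar collagens were not called with serum in newly transcribed RNA, and their probe sets differed in sign. Col3a1 read lower at 102990_at in 4 of 4 numbers (mean -0.59 ± 0.16, SE, with the block; limma adjusted p = 0.12), -0.29 ± 0.15 at 98331_at and -0.04 ± 0.14 at 161984_f_at. Col1a2 read -0.23 ± 0.11 at 101130_at, lower in 4 of 4 numbers, and 0.60 ± 0.12 at 161156_r_at, higher in 4 of 4 (limma adjusted p = 0.31 and 0.068). The suffix r marks a probe set for which rules of probe choice were relaxed. Col1a1 read 0.19 ± 0.11 at 94305_at and 0.58 ± 0.13 at 103709_at, each higher in 4 of 4 numbers (limma adjusted p = 0.37 and 0.080). For type V collagen, Col5a1 read 0.21 ± 0.16 at 93472_at and 0.50 ± 0.16 at 101080_at (limma adjusted p = 0.51 and 0.14), and Col5a2 -0.09 ± 0.10 (adjusted p = 0.70). Col4a1 and Col4a2 read 0.18 ± 0.11 and 0.17 ± 0.11 (SE, limma adjusted p = 0.42 for both). Each was higher in 4 of 4 numbers, as was 101080_at of Col5a1.

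In total RNA no collagen difference between 1% and 10% serum was called. After quantile normalization the 15 differences lay between -0.08 and 0.14, 0 were called, and the lowest limma adjusted p with the block was 0.61, where 0.121% of all probe sets were called without the block and 0.483% with it. Their median was 0.03 against -0.01 over all probe sets. It was 0.13 against -0.01 with arrays scaled to 1 median and 0.48 against 0.21 with values as deposited, with 15 of 15 positive and 0 called under both. Col1a1 at 103709_at, whose array numbers lay farthest apart in total RNA, moved by no more than 0.19 within a number. In amplified RNA 0 of 15 and 0% of all were called (175 of all at an unadjusted limma p below 0.05), and the differences lay between -0.46 and 0.45.

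**Figure D3:**
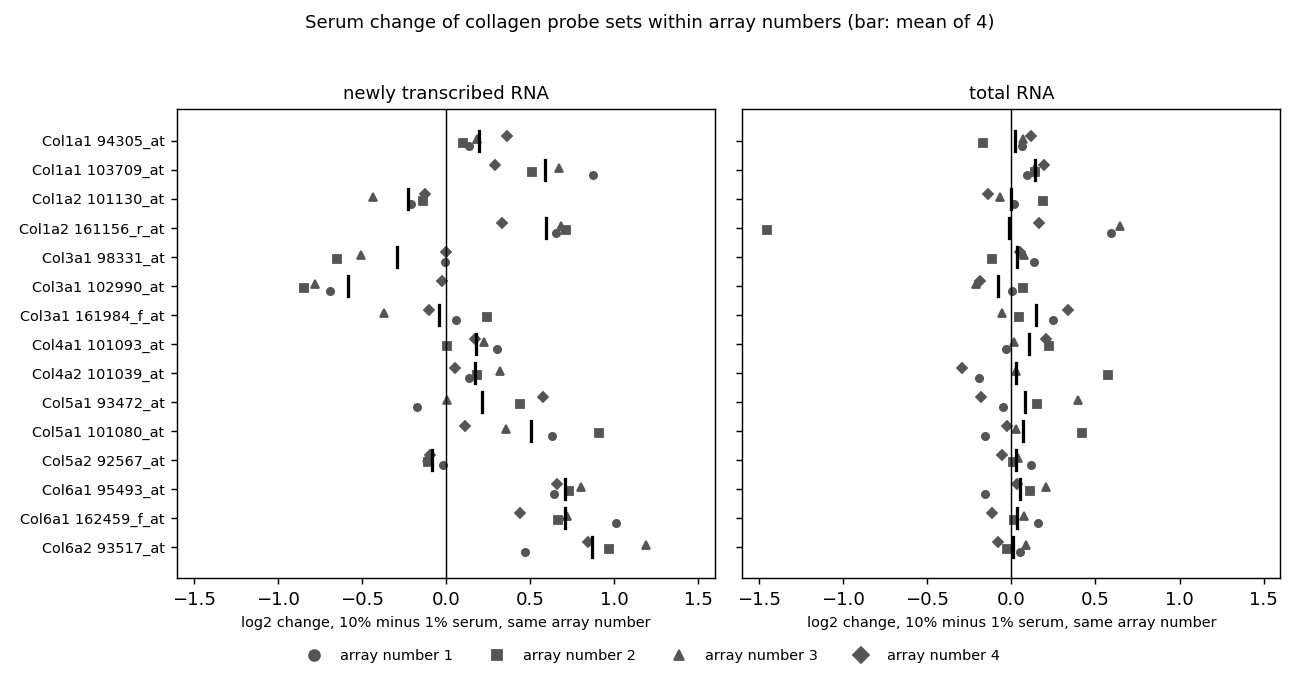
Change of the 15 collagen probe sets with serum, treated minus starved arrays of the same number on the log2 scale, in newly transcribed RNA (left) and total RNA (right). Each point is 1 array number and bars are means of 4. On the left Col6a1 and Col6a2 lie above 0 in 4 of 4 numbers. So do Col4a1, Col4a2, both probe sets of Col1a1, 161156_r_at of Col1a2 and 101080_at of Col5a1. The means on the right lie between -0.08 and 0.14.

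Array number set apart some collagen levels more than serum did. In newly transcribed RNA 94305_at of Col1a1 averaged 9.07, 11.11, 11.85 and 9.52 over the pairs numbered 1 to 4, a range of 2.78, while serum moved it by at most 0.36 within a number. Col6a2 averaged 6.66, 9.25, 9.35 and 6.72. Both were thus low in numbers 1 and 4 and high in 2 and 3. The other Col1a1 probe set, 103709_at, ran the opposite way at 10.85, 8.74, 8.70 and 11.77. The GAPDH 3′ to 5′ difference in newly transcribed RNA varied by number too. In starved arrays 1 to 4 it was 2.84, 2.11, 1.73 and 2.28. In treated arrays 1 to 4 it was 3.36, 1.72, 1.46 and 1.78. Its part in the split between numbers was not tested.

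The same 2 Col1a1 probe sets ran together in total RNA. There the numbers split otherwise: 103709_at averaged 12.05, 10.03, 12.29 and 9.98, and Col6a2 11.12, 10.01, 11.13 and 9.83, high in numbers 1 and 3 and low in 2 and 4. At 94305_at the total RNA averages ran from 12.43 to 12.77, a range of 0.34. The deviations of the 2 Col1a1 probe sets from their group means correlated at r = -0.90 over the 8 arrays of newly transcribed RNA and at 0.92 over the 8 of total RNA, as a description of arrays that share numbers. Col1a1 is therefore not given 1 direction here. The 2 Col6a1 probe sets correlated at 0.89 in newly transcribed and 0.87 in total RNA, and Col6a1 was lowest in number 4 of newly transcribed RNA, at 8.05 against 9.30 to 9.51 in the others.

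**Figure D4:**
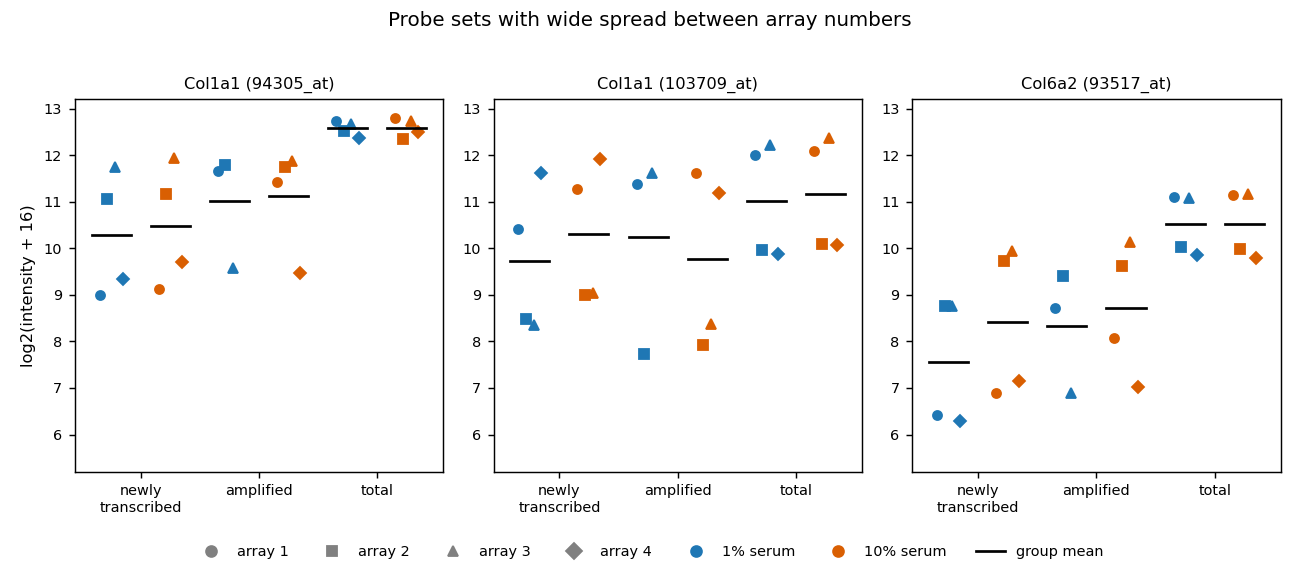
Levels of the 2 Col1a1 probe sets and of Col6a2 in the 3 kinds of RNA, as log2(normalized intensity + 16) on a shared vertical axis, with 1 point per array, marker shapes for array numbers, colours for serum and bars for group means. In newly transcribed RNA 94305_at and Col6a2 are low in numbers 1 and 4, where 103709_at is high.

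Amplified and unamplified total RNA were compared over both serum conditions, which asks how far the added amplification altered the reading of a collagen transcript. Of the 15 probe sets 4 were lower after amplification and 0 higher, where 8.99% of all probe sets were called lower and 18.8% in either direction. Col6a2 differed most, by -1.99 ± 0.51 (SE; limma adjusted p = 0.015), with total RNA at 9.79 to 11.17 and amplified RNA at 6.90 to 10.14. Col1a1 at 94305_at differed by -1.51 ± 0.38 (SE; adjusted p = 0.014), Col6a1 at 95493_at by -1.21 ± 0.27 (SE; adjusted p = 0.0069) and Col5a1 at 101080_at by -1.18 ± 0.20 (SE; adjusted p = 0.0012). The second probe sets of Col1a1, Col5a1 and Col6a1 were not called, at -1.08 ± 0.78, 0.00 ± 0.28 and -0.36 ± 0.42 (SE; limma adjusted p = 0.38, 1 and 0.61). Col3a1, Col4a1 and Col5a2 differed by -0.29 to 0.37 over their 5 probe sets, with 0 called.

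These 4 calls remained in each of the 15 fits that left out 1 array, none of which left out all arrays of a number. The fit counts arrays as independent, while most same-numbered arrays of starved and treated cells deviated together. Their correlations were 0.23 to 0.70 in total RNA and 0.69, 0.76 and -0.47 in numbers 1, 2 and 3 of amplified RNA. The standard errors and p-values of this comparison can therefore be too small. With the GAPDH 3′ to 5′ difference as a covariate Col1a1 (94305_at) gave 0.65 ± 0.70 and Col6a2 0.83 ± 0.93 (SE; limma adjusted p = 0.66 and 0.68), and 1 call of 4 was left. That difference and the kind of RNA did not overlap, so their parts cannot be told apart.

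Genes that act on collagen were read beside it, from lists drawn up with earlier results of these data known. Of 17 genes for processing and modification, which hydroxylate, fold, cut and cross-link the chains, 0 were called with serum in any kind of RNA. Plod3, a lysyl hydroxylase, read 1.01 ± 0.18 in newly transcribed RNA with the block (SE; limma adjusted p = 0.052) and Loxl1, a cross-linking oxidase, 0.66 ± 0.22 (adjusted p = 0.15). In newly transcribed against amplified RNA 3 of these 17 were called lower in 1% serum and 2 in 10% serum, or 7 with the block, with 0 higher, where the shares of all probe sets called lower were the 2%, 2.83% and 10.1% given above; their medians of -0.81 and -0.73 stood against 0.00 and 0.03 over all 8251 genes. The 7 are for 10% serum, and in 1% serum the block left 0 called in this list and in each of the others. With values as deposited 0 were called in either condition and the medians were 0.10 in 1% serum, where the direction thus turned, and -0.75 in 10% serum.

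The 17 partners in fibrils and basement membranes were lower too in that comparison. Of them 1 was called lower in 1% serum and 5 in 10% serum, or 11 with the block, with 0 higher, against the same 2%, 2.83% and 10.1% of all, and their medians were -1.02 and -0.88 (-0.11 and -0.89 with values as deposited, with 0 called). With serum, in newly transcribed RNA with the block, 2 of 17 were called, both lower, where 0.829% of all probe sets were called lower. They were Lum, a proteoglycan that binds collagen fibrils, at -1.38 ± 0.23 (SE, limma adjusted p = 0.046) and Ogn, of the same family, at -1.27 ± 0.15 (adjusted p = 0.027). In total RNA they read -0.02 ± 0.09 and -0.02 ± 0.12 (SE; limma adjusted p = 0.98 and 0.99).

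Of 11 genes for cleavage of collagen and its inhibitors 1 was called with serum in newly transcribed RNA with the block, where 1.74% of all probe sets were. Ctsk, a collagen-degrading protease, fell by 0.87 ± 0.12 on the log2 scale (SE; limma adjusted p = 0.037), and Timp1, an inhibitor of matrix metalloproteinases, read 1.56 ± 0.30 (adjusted p = 0.061). Of 20 regulators of collagen transcription 2 were called, both higher, where 0.91% of all probe sets were called higher. They were Smad7, an inhibitor of TGF-beta signalling, at 0.75 ± 0.11 (limma adjusted p = 0.042) and Cebpb at 0.98 ± 0.14 (adjusted p = 0.039). Cebpb was also called in total RNA, at 0.85 ± 0.09 (adjusted p = 0.031), and Tgfb1, a ligand that raises collagen transcription in fibroblasts, read 1.42 ± 0.34 in newly transcribed RNA (adjusted p = 0.089). These regulators stood on the other side of the comparison with amplified RNA, with medians of 0.70 in both serum conditions; 2 of 20 were called higher in 1% serum and 1 in 10% serum, or 6 with the block, and 0 lower, where 1.17%, 1.22% and 11.1% of all probe sets were called higher. On the unnormalized values the 20 regulators had medians of 1.49 and 0.59, with 0 called.

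Of the marker lists, Thy1, a fibroblast surface protein, read 1.04 ± 0.12 (SE; limma adjusted p = 0.027) and Acta1, skeletal muscle actin, 2.10 ± 0.33 (adjusted p = 0.042) in the same blocked fit, and both were called. Twist1 of the fibroblast list read -1.17 and Actc1, cardiac actin, of the muscle list 1.05 (adjusted p = 0.071 and 0.070). The largest differences of the other marker lists were not called: Cd14 and C1qb of macrophages read 0.84 and 0.74, Flt1 and Pecam1 of endothelium 0.88 and 0.54, Dsp and Krt18 of epithelium -0.41 and 0.40, and Chad and Col9a1 of cartilage 0.60 and 0.52 (limma adjusted p = 0.083 to 0.35).

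None of these 7 list genes called with serum in newly transcribed RNA was called with values as deposited and the block: Lum, Ogn and Ctsk then read -1.85, -1.80 and -1.41 (limma adjusted p = 0.20 for each), Cebpb 0.67 (adjusted p = 0.21), Smad7 0.28 (adjusted p = 0.57), Thy1 0.63 (adjusted p = 0.22) and Acta1 1.67 (adjusted p = 0.20). With arrays scaled to 1 median Smad7 lost its call (0.64; adjusted p = 0.054), while Plod3 (0.84; adjusted p = 0.047), Timp1 (1.68; adjusted p = 0.039) and Twist1 (-1.19; adjusted p = 0.036) gained 1.

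Among 20 other collagen chains 0 were called with serum. Col7a1, the anchoring fibril collagen, read 0.67 ± 0.17 and Col11a1, a fibrillar chain of cartilage, -0.58 ± 0.18 in newly transcribed RNA with the block (SE; limma adjusted p = 0.092 and 0.14). In newly transcribed against amplified RNA 1 of the 20 was called lower in 1% serum and 2 in 10% serum, with 0 higher. Of all probe sets 2% and 2.83% were called lower there. The medians of the 20 were -0.26 and -0.16, or 0.04 and -0.14 with values as deposited. Of 5 collagen receptors 0 were called with serum; Mrc2, which takes up collagen, read -0.62 ± 0.25 and Ddr2, a receptor kinase for fibrillar collagen, 0.41 ± 0.14 (SE; limma adjusted p = 0.22 and 0.17).

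The genes whose levels ran most like each collagen, read by its brightest probe set alone, were found by Pearson's r over the 23 arrays. These arrays share kinds of RNA, array numbers and normalization. Crtap, a subunit of the complex that hydroxylates collagen prolines, was nearest to Col3a1 (r = 0.97), followed by Cst3 (0.95) and Tmem59 (0.93). Colgalt1, which adds galactose to collagen hydroxylysines, was nearest to Col1a2 (r = 0.94), with Cttn (0.92) and Sparc, a collagen-binding matrix protein (0.90), behind it. By deviations from the group means the nearest were others. For Col3a1 they were Limk2 (0.74), Fdft1 (0.68) and Eln (0.66), and for Col1a2 Bgn (0.90) and Ahcyl1 (0.90), followed by Colgalt1 (0.88). The other genes named here are those by levels. Capn1 was nearest among non-members to both Col1a1 (0.95) and Col6a2 (0.97). Sidt2 was nearest to Col6a1 (0.95), Smpd1 to Col4a2 (0.96), Atp6ap1 to Col5a2 (0.88), Jak1 to Col5a1 (0.85) and Hdgf to Col4a1 (0.76).

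Chains of 1 collagen type were not always each other's nearest. In levels Col6a2 ranked 1 of 8250 genes in likeness to Col1a1 at 94305_at (r = 0.95). Col1a2, the partner of Col1a1 in type I collagen, ranked 996 (r = 0.62). By deviations from the group means Col6a2 ranked 20 (r = 0.92) and Col1a2 2871 (r = 0.25). The other Col1a1 probe set, 103709_at, did not share the likeness in levels, at r = -0.11 with Col6a2 and 0.00 with Col1a2. Col6a1 and Col6a2 correlated at r = 0.87. Col4a1 and Col4a2, despite starts 21 bases apart, correlated at r = 0.52 in levels and at 0.75 in deviations from the group means. Col5a1 and Col5a2 correlated at r = 0.72 in levels by 93472_at of Col5a1 and at 0.44 by 101080_at. Col3a1 and its genomic neighbour Col5a2 correlated at 0.67 in levels and -0.02 in deviations.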

How the data were processed

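The values analysed were the intensities deposited by the authors, 1 linear signal per Affymetrix probe set for 12488 probe sets on 23 arrays. Per the labels' protocols, RNA was reverse-transcribed, linearly amplified and labelled with biotin through T7 transcription; the summarising software is not given in the sources used here, nor is a scaling step. Groups came from the sample titles. The 66 control probe sets were left out, arrays were quantile normalized and log2(value + 16) was taken, so fold changes are on that scale and are understated for dim probe sets. Genes were named from the platform annotation where it gave 1 symbol; all 15 collagen symbols were the same in RefSeq GRCm38.p6.

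Each comparison was fitted on its own kinds of RNA with limma 3.58.1 (R 4.3.3; moderated two-sided test from lmFit and eBayes). P-values of the 12422 probe sets were adjusted together by Benjamini-Hochberg, and those below 0.05 were called; the code was tested on simulated data. The array number was also fitted as a block. Same-numbered arrays were checked for shared deviations from their group means: the correlations were 0.70 to 0.80 between starved and treated newly transcribed RNA, 0.23 to 0.70 in total RNA and 0.56 to 0.73 between newly transcribed and amplified RNA in 10% serum, all above 0.1, so the block stands beside those results. The pairing is thus a reading of the data, not of the labels. P-values measure the spread between these arrays, and the number of arrays limits the precision. The collagen genes and the lists were chosen with earlier results of these data known. All 9 members are named; a list gene is named where it was called with serum or had 1 of the 2 largest changes of its list in newly transcribed RNA, and the 3 genes most like a collagen were sought among 4125 above the median level. The alternatives were the deposited values without normalization, scaling to 1 median, pseudocounts of 1 and 64, the upper part of the probe sets by level, a fit on all arrays, the GAPDH 3′ to 5′ difference as a covariate and leaving out each array.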

Additional observations from a re-analysis of the deposited data

Results flagged for a closer look

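In 75 groups of 4 arrays (15 collagen probe sets), 6 held an array farther from the others than Dixon's critical value of 0.829 of the range; chance gives about 1 in 20. Col6a1 at 95493_at was low in array 4 of newly transcribed RNA in both serum conditions, at 7.72 against 8.98 to 9.14 in starved and 8.38 against 9.62 to 9.87 in treated cells. Col3a1 at 161984_f_at was high in amplified array 1 of treated cells, at 10.10 against 8.83 to 8.99, and Col3a1 at 98331_at was high in total array 3 of starved cells, at 12.02 against 11.75 to 11.76. Col1a2 at 101130_at was low in amplified array 4 of treated cells, at 12.05 against 12.35 to 12.38. Col4a2 was low in total array 2 of starved cells, at 10.33 against 11.03 to 11.07.

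Col1a2 at 101130_at had serum differences of opposite sign in 2 kinds of RNA, neither of them called. It was lower in 4 of 4 array numbers of newly transcribed RNA (mean -0.23) and higher in 3 of 3 of amplified RNA (0.17, 0.13 and 0.32; mean 0.21), a difference of -0.43. The third of these uses amplified array 3 of starved cells, which deviated unlike its number and at 12.05 equalled array 4 of treated cells, and is not read as a pair. The test of the difference between the responses gave a limma adjusted p of 0.85 with the replicate block and 1 without it.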

How the results depend on the processing

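Values are numbers of the 15 collagen probe sets called. Serum in newly transcribed RNA gave 0, and 2 with the replicate block. Around that 2 the count was 0 with values as deposited, arrays scaled to 1 median, a pseudocount of 1, the GAPDH covariate, no replicate block or any 1 array number left out (0 to 0), 1 with a pseudocount of 64 and 5 among the brighter probe sets alone. Newly transcribed against amplified RNA in 1% serum gave 3, but 0 with values as deposited, a pseudocount of 1, the GAPDH covariate or the replicate block, and 0 to 1 with 1 array left out; same-numbered arrays there deviated together in numbers 1 and 2 (0.37 and 0.68) but not in 3 (-0.39), as in amplified RNA with serum (0.69, 0.76 and -0.47), so this block is a pairing by number only. In 1% serum it left 0 called in every gene list. In amplified RNA with serum it left the count at 0, with 508 of all probe sets at an unadjusted p below 0.05. In 10% serum it gave 3, but 0 with values as deposited, 9 with the replicate block and 1 to 3 with 1 array left out. Around that 9 the count was 0 with values as deposited, 4 with a pseudocount of 1 or the GAPDH covariate, 3 without the block and 3 to 8 with 1 number left out. Amplified against total RNA gave 4, and 1 with values as deposited or the GAPDH covariate; under that covariate Col1a1 (94305_at) was 0.65 and Col6a2 0.83, both negative otherwise. The cause of these changes was not tested. The other counts, 0 for serum in total and amplified RNA and for the differences of responses, kept to 0 in all settings run. Over 131 gene results and 2341 settings, 2173 kept their call and direction, whatever the size of the shift, or changed sign within their error while uncalled. A call was lost in 113 and gained in 14. Of the rest 39 were uncalled values that changed sign by more than their standard error, and 2 reversed. Changes of sign of values not called numbered 237. As deposited, the median of all probe sets moved to -0.18 for serum in newly transcribed RNA, 0.21 in total and 0.25 in amplified RNA.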
